A study of Mus musculus with 16 samples.

Results

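Hematopoietic stem cells (HSCs) of steady state (SS) mice were compared by their surface level of MAC-1. RNA of 3 samples of SS MAC-1 low HSCs was set against RNA of 3 samples of SS MAC-1- (MAC-1 negative) HSCs, which are 6 of the 16 samples of the series, and the samples were assigned by their labels alone. The mice were wild type (WT) B6.SJL animals labelled as untreated. The other samples came from HSCs of the same strain taken 4 weeks after 8000 LSK cells (lineage-negative, Sca1+, cKit+) had been transplanted into recipients irradiated with 900 cGy, and of these the 4 MAC-1 low and the 3 MAC-1- samples serve here as the pair to compare with. The protocol text attached to every sample, the SS ones included, describes the transplantation, while the treatment label separates the SS samples from the transplanted ones. All HSCs were sorted from crushed spine, femurs, tibia and iliac bones after enrichment for cKit, as live cells that were positive for cKit, Sca1 and CD150 and negative for CD48 and for the lineage antigens CD3e, B220, Gr, NK1.1 and Ter119 (LSK SLAM). The labels give neither the age of the mice nor whether replicates are separate animals or pools, so that every p-value below measures the spread between these samples, which may be technical.

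MAC-1 is the integrin made of CD11b (*Itgam*) and CD18 (*Itgb2*). Neutrophils, monocytes and macrophages carry it at high levels and use it to adhere to vessel walls and to take up opsonized particles, and it is therefore often part of the antibody mix with which mature cells are removed from HSC preparations. Most HSCs of an unperturbed marrow rest outside the cell cycle, and genes of DNA replication and mitosis, immediate-early transcription factors such as AP-1 and EGR1, and low-level expression of lineage genes are commonly used to describe how far a preparation of HSCs has moved from rest.

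The SS libraries held 16226999 to 18878201 counts in MAC-1 low and 13781278 to 21086753 counts in MAC-1- HSCs. The number of genes with any count was 15329 to 15940 in MAC-1 low and 14658 to 17576 in MAC-1- libraries, highest in MAC-1- replicate 3. Libraries were made with SMART-Seq from small numbers of sorted cells, and of the 9517 genes with a mean of 100 counts or more over the SS libraries, 1467 (15.4%) had at least 1 SS library at 0. Replicates resembled one another hardly more than the groups did. The correlation of log2 CPM (counts per 1000000 counts of the library) across genes ran from 0.701 to 0.746 between libraries of the same group and from 0.685 to 0.731 between libraries of different groups. CPM were scaled with TMM factors, and values below are given in the order of replicates 1, 2 and 3. A count of 0 is taken to allow up to 3 counts in a library, which is 0.154 to 0.22 CPM in these 6 libraries, and like every interval here this covers counting error only. In bulk RNA, fewer cells of a kind and less RNA per cell cannot be told apart.

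RNA of the sorted antigen itself was scarce, and no test separated the groups by it. *Itgam* (ENSMUSG00000030786, chromosome 7, 128062640 to 128118491 in GRCm38) was detected with 30, 16 and 15 counts in MAC-1 low and with 0, 5 and 2 counts in MAC-1- libraries, corresponding to 1.57, 0.895 and 0.773 against 0, 0.262 and 0.103 CPM. Every MAC-1 low library thus lay above every MAC-1- library. The log2 fold change was 3.06 with a standard error (SE) of 2.10 and an adjusted p of 0.721 in edgeR, and the two-sided exact permutation test of log2 CPM gave p = 0.1, the smallest that 3 against 3 samples allow (0.2 after Benjamini-Hochberg adjustment over both subunits). *Itgb2* had 694, 18 and 445 counts in MAC-1 low and 142, 0 and 142 counts in MAC-1- libraries. These groups overlapped, since MAC-1 low replicate 2 had fewer counts than 2 of the MAC-1- libraries (log2 fold change 1.77, SE 1.42, adjusted p = 0.790; exact permutation p = 0.5).

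Genes of the sorting gate were read in both groups. *Kit* lay at 295.2, 429.9 and 349.6 CPM in MAC-1 low and at 401.7, 327.2 and 360.5 CPM in MAC-1- HSCs, and *Ly6a*, which encodes Sca1, at 604.8, 304.6 and 370.2 against 413, 365.3 and 197.1 CPM. *Slamf1*, the gene of CD150, ranged from 2.45 to 59.7 CPM and *Cd48* from 0 to 42.2 CPM over the 6 libraries, and both groups overlapped for each of these genes. *Flt3* encodes a cytokine receptor that multipotent progenitors carry and long-term HSCs largely lack. It stood at 8.92, 8.05 and 8.46 CPM in MAC-1 low and at 1.17, 0.105 and 0.103 CPM in MAC-1- HSCs, without overlap, and the difference did not pass the threshold after adjustment (log2 fold change 4.2, SE 1.29, adjusted p = 0.444). *Cd34*, which also rises as HSCs turn into progenitors, stood at 235.4, 127.1 and 215.2 against 80.1, 83.4 and 172.4 CPM, with overlap between MAC-1 low replicate 2 and MAC-1- replicate 3. The HSC markers *Hlf*, a transcription factor of 236.9 to 538.4 CPM in MAC-1 low and 225.2 to 470.5 CPM in MAC-1- libraries, and *Mecom*, of 102.2 to 136.6 and 161.6 to 180.4 CPM, were detected in all 6 libraries.

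**Figure D1:**
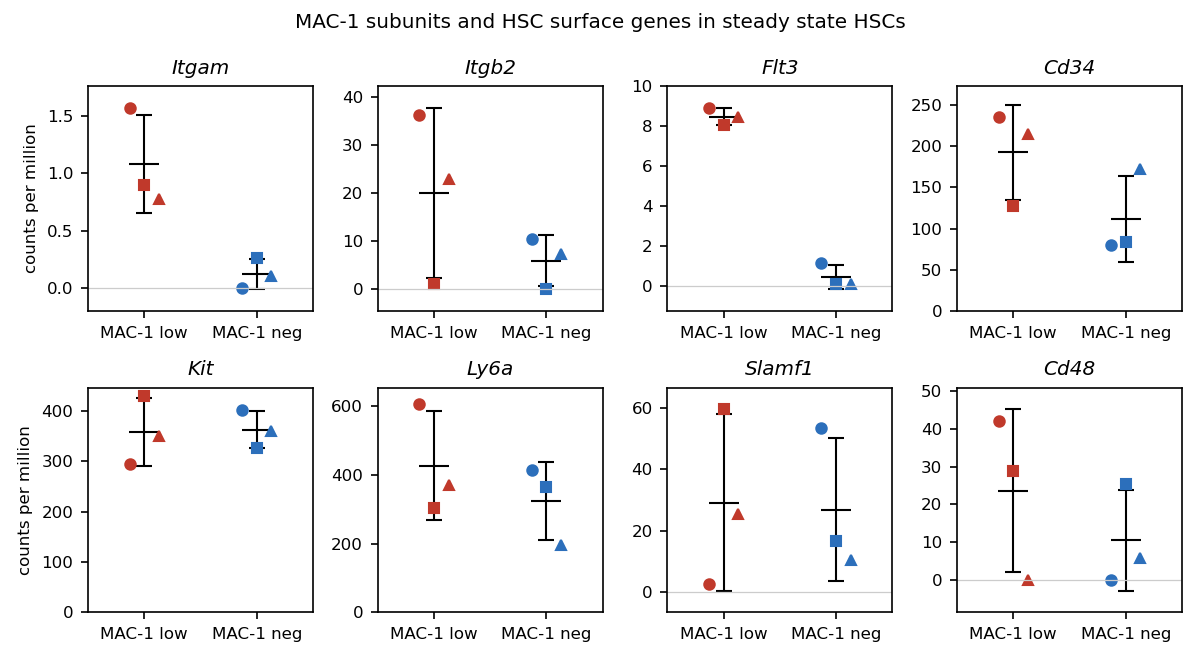
CPM of the MAC-1 subunits *Itgam* and *Itgb2* and of 6 HSC surface genes in SS MAC-1 low (red) and SS MAC-1 negative (blue) HSCs, 1 point per library (circle, square and triangle for replicates 1, 2 and 3), with the mean and SD of 3 libraries. *Itgam* and *Flt3* libraries do not overlap between the groups, while those of the other 6 genes do.

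Over all genes, 2 of 13661 genes tested (0.0146%) passed an adjusted p of 0.1 with an absolute log2 fold change above 1 in edgeR, 1 higher and 1 lower in MAC-1 low HSCs. At an unadjusted p below 0.05 there were 696 genes (5.09%) that were higher and 582 (4.26%) that were lower in MAC-1 low HSCs. The number of calls depended on the tool, with 699 calls in DESeq2 (446 higher, 253 lower) and 0 in limma-voom with sample weights, where 1008 genes were at an unadjusted p below 0.05.

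*Ska1* rose in MAC-1 low HSCs. It encodes a subunit of the SKA complex, which couples kinetochores to spindle microtubules in mitosis. The gene was read with 293, 194 and 1058 counts (15.3, 10.9 and 54.6 CPM) in MAC-1 low and with 0, 0 and 4 counts (0, 0 and 0.205 CPM) in MAC-1- libraries. The groups lay far apart, although the MAC-1 low libraries differed among themselves as well (log2 fold change 8.41, SE 1.26, adjusted p = 0.0948). In the pair taken 4 weeks after transplantation *Ska1* was present in every library, at 24.7, 28, 46.6 and 63.6 CPM in MAC-1 low and at 14.8, 33.7 and 49.1 CPM in MAC-1- HSCs.

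*Hist1h2bc* (ENSMUSG00000018102, chromosome 13, 23684199 to 23692908) fell in MAC-1 low HSCs. It is one of the histone H2B genes of the large histone cluster. Its values were 42.3, 52.2 and 67.8 CPM in MAC-1 low and 188.1, 146.8 and 193.9 CPM in MAC-1- HSCs, a mean of 54.1 ± 12.8 against 176.3 ± 25.6 CPM (SD, n = 3). All 6 libraries held 810 counts of it or more, and the highest MAC-1 low library was still below the lowest MAC-1- library (log2 fold change −1.70, SE 0.27, adjusted p = 0.0948). Its neighbour *Hist1h2ac*, a histone H2A gene, stood at 1.36, 9.84 and 5.16 against 8.58, 12.2 and 2.56 CPM, with overlap. Histone H2B genes are near-identical in their coding sequence, so that the division of reads among them is uncertain. Both calls were lost in some fits. *Ska1* passed the threshold in 18 of 28 alternative fits and *Hist1h2bc* in 12, with the same direction throughout. These 28 include the 16 fits that each left out 1 library of the series, in which *Ska1* passed in 9 and *Hist1h2bc* in 6. In limma-voom the adjusted p was 0.178 for *Ska1* and 0.299 for *Hist1h2bc*, and in DESeq2 it was 1.03e-12 and 6e-07.

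The genes next in order of p, among those with at least 50 normalized counts and no overlap between the groups, did not pass the adjusted threshold in edgeR. Those higher in MAC-1 low HSCs had an adjusted p of 0.194 to 0.261. *Rnf181*, a RING ubiquitin ligase, had the tightest values, with 103.7, 102.3 and 121 CPM in MAC-1 low against 38.4, 39 and 28 CPM in MAC-1- HSCs (log2 fold change 1.63, SE 0.33). *Stil*, which is needed to build new centrioles, was read with 576, 181 and 957 counts against 1, 2 and 27 counts (log2 fold change 5.81, SE 1.12). *Rel*, the NF-kB subunit c-REL, stood at 8.51, 16.8 and 50 against 0.293, 2.25 and 1.44 CPM. Clear expression in MAC-1 low and near absence in MAC-1- libraries was also the pattern of *Pbx3*, a TALE homeodomain factor and partner of HOX proteins (49.2, 31.9 and 28.8 against 0, 0.262 and 0.308 CPM), of the transporter *Slco3a1* (12.9, 21.6 and 55.7 against 0.88, 0 and 0.667 CPM) and of *Ccdc9* (30, 6.04 and 9.23 against 0.293, 0.105 and 0.103 CPM).

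For several of these genes the MAC-1- libraries held at most 2 counts together. The ratio of summed counts, each divided by the summed TMM-scaled library sizes of its group, is then given with its 95% counting interval. It was 2909.9 (521.9 to 114971.5) for the zinc finger gene *Zfp53*, 1110.3 (198.9 to 43890.6) for *Spns3*, a member of the Spinster transporter family, and 741.6 (205 to 6128.8) for *Msantd3*. *Rassf4*, a Ras association domain gene, had 66, 908 and 641 counts in MAC-1 low and 0 in all 3 MAC-1- libraries, which makes it at least 164.3-fold higher against a floor of 3 counts per library. Such intervals cover counting error alone. At 4 weeks after transplantation *Pbx3*, *Stil*, *Rel*, *Ccdc9* and *Slco3a1* were read in all 3 MAC-1- libraries at 6.52 CPM or more. The genes with the largest ratios varied more between these libraries. *Zfp53* stood at 0, 58.2 and 11 CPM, *Rassf4* at 16.1, 6.29 and 0.0604 CPM, *Msantd3* at 2.7, 10.8 and 2.42 CPM and *Spns3* at 10.4, 7.39 and 4.17 CPM.

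Genes in which 1 group was near absent were found in both directions. In 17 of the genes tested every MAC-1 low library had 100 counts or more while every MAC-1- library had 5 or fewer, and in 8 genes the reverse held, with cutoffs chosen after the values of *Ska1* had been seen.

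Among the genes lower in MAC-1 low HSCs, the adjusted p of those that did not pass ran from 0.159 to 0.400. Most were abundant genes that differed moderately. *Sarnp*, a component of the mRNA export machinery, lay at 730.7, 589.2 and 700.5 CPM in MAC-1 low and at 1242.8, 1177.6 and 1361.5 CPM in MAC-1- HSCs (log2 fold change −0.90, SE 0.16). *Paip2*, which restrains translation by binding the poly(A)-binding protein, lay at 1315.6, 1175 and 1383.3 against 1769.6, 2080.8 and 2045.8 CPM. *H3f3b*, one of the genes of the replication-independent histone H3.3, lay at 4230.9, 3090.4 and 3664.5 against 5915.2, 5041.3 and 5368.5 CPM, and the selenoprotein gene *Sep15* at 779.6, 814.1 and 873.2 against 1196.4, 1055.6 and 1472.5 CPM. The gap between the groups was narrow relative to their level in *Paip2*, *H3f3b* and *Sep15* and wider in *Sarnp*. In none of these 4 genes did a MAC-1 low library reach a MAC-1- library.

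*F2r*, the thrombin receptor PAR1, was read at 23.6, 42 and 35.2 CPM in MAC-1 low and at 69.5, 104.9 and 106.1 CPM in MAC-1- HSCs (log2 fold change −1.48, SE 0.35). The ubiquitin ligase gene *Ubr3* stood at 24.2, 18.6 and 55.6 against 98, 129.2 and 145.4 CPM, *N4bp2* at 56.8, 24.2 and 49.3 against 120, 105 and 194 CPM, and *Zfand6* at 381.8, 274.2 and 327.1 against 453.6, 576.7 and 834.9 CPM. Near absence in MAC-1 low HSCs was seen in 2 of the named genes. *Lefty1*, an antagonist of Nodal signalling, had 1, 1 and 6 counts in MAC-1 low and 319, 595 and 486 counts in MAC-1- libraries (log2 fold change −7.50, SE 1.48), and *Yipf3*, a Golgi membrane protein gene, had 4, 0 and 8 against 168, 140 and 613 counts (log2 fold change −6.31, SE 1.18). Of the 30 genes named for this comparison and for that with 4 weeks, 11 overlap another annotated gene in GENCODE M21, among them *Rnf181*, *Pbx3*, *Rassf4*, *Slco3a1*, *Sarnp*, *Paip2*, *Zfand6*, *N4bp2* and *Sep15*, and reads of such a gene and its partner cannot be told apart where strand was not used.

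**Figure D2:**
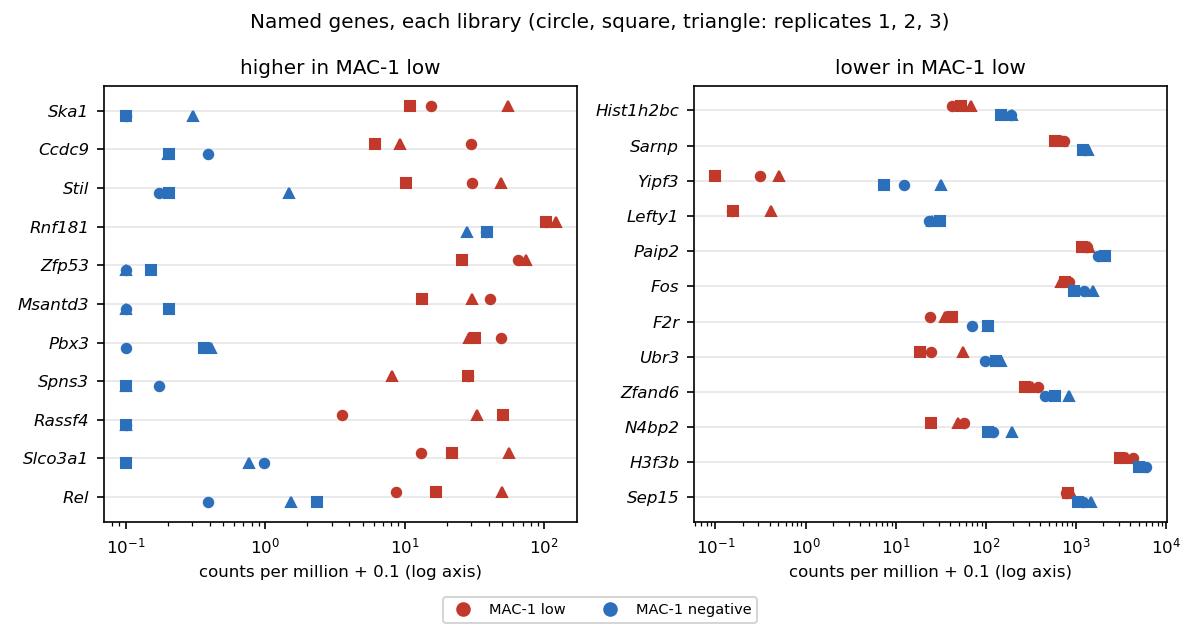
CPM plus 0.1 on a log axis of the genes named for the comparison of SS MAC-1 low (red) with SS MAC-1 negative (blue) HSCs, 1 point per library. Left, 11 genes higher in MAC-1 low, in most of which the MAC-1 negative libraries lie below 1. Right, 12 genes lower in MAC-1 low, most of them abundant and separated by a small gap. *Ska1* and *Hist1h2bc* passed the adjusted threshold.

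Gene lists were described by how many of their tested members had 3 libraries of one group above all 3 of the other. Over all genes tested, 813 (5.95%) were without overlap and higher in MAC-1 low, and 735 (5.38%) without overlap and lower, while the median log2 fold change was 0. These shares are the background for the counts below. *Ska1* and *Hist1h2bc* were the only members of any list past the adjusted threshold in edgeR.

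**Figure D3:**
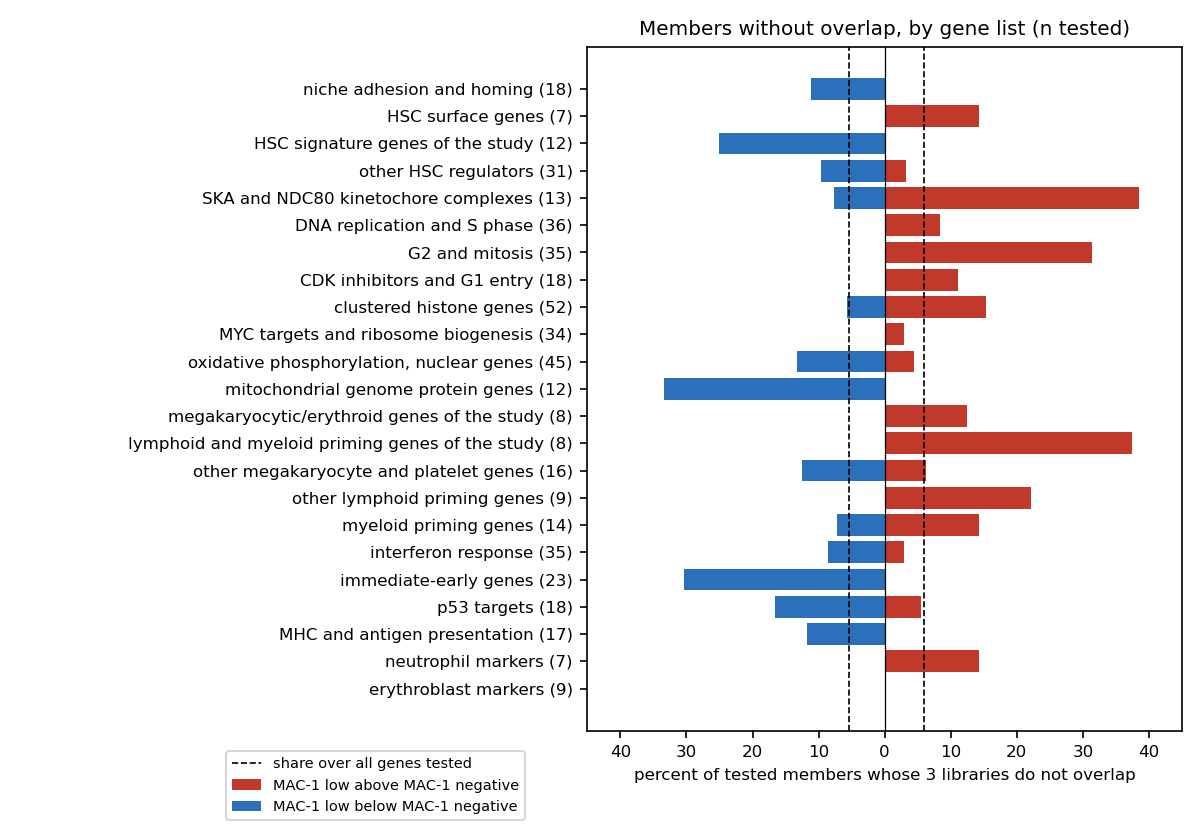
Percent of the tested members of each gene list with at least 7 of them (number in brackets) whose 3 SS MAC-1 low libraries all lie above (red, to the right) or below (blue, to the left) the 3 SS MAC-1 negative libraries. Dashed lines mark the same share over all genes tested, 5.95% above and 5.38% below. Among these lists, bars reach farthest to the right for kinetochore genes, the priming genes of the study and G2 and mitosis genes, and farthest to the left for genes of the mitochondrial genome and immediate-early genes.

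Genes of G2 and mitosis stood higher in MAC-1 low HSCs as a group. Of 35 tested genes, 11 (31.4%) were without overlap and higher, 0 without overlap and lower, 32 had a positive and 3 a negative log2 fold change, and the median was 1.12. Their summed level was 2581.1, 4571.7 and 3659.4 CPM in MAC-1 low and 2090, 1855.1 and 2110 CPM in MAC-1- HSCs. No member passed the adjusted threshold in edgeR or limma-voom, and 7 did in DESeq2, all higher. *Top2a*, topoisomerase II alpha, which untangles sister chromatids, lay at 157.8, 321.4 and 178.2 CPM against 109.4, 87.5 and 99.2 CPM. *Ccnb2*, a mitotic cyclin, lay at 176, 226.2 and 261.3 against 130.5, 85.2 and 46.4 CPM. *Mki67*, the proliferation antigen Ki-67, lay at 165.3, 384.8 and 154.9 against 98.1, 112.4 and 135.3 CPM. In all 3 genes the groups were apart, with MAC-1 low replicate 2 highest for *Top2a* and *Mki67*.

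The same held for *Cdca8*, *Aurkb* and *Incenp* of the chromosomal passenger complex, which corrects faulty attachments of chromosomes. *Cdca8* stood at 123.5, 176.8 and 87.9 against 6.23, 27.9 and 58.7 CPM, *Aurkb* at 49.1, 56.8 and 60.6 against 4.25, 12.4 and 46.1 CPM and *Incenp* at 33, 87.9 and 46.1 against 11.6, 10.8 and 30.6 CPM. The checkpoint kinase gene *Bub1* (84.9, 34.5 and 86.2 against 22.7, 0.262 and 1.54 CPM), the centromere protein gene *Cenpf* (95.2, 123.9 and 51.9 against 16.7, 33.2 and 35.2 CPM) and *Prc1*, which bundles the microtubules of the spindle midzone (35.8, 130.7 and 49.3 against 22.9, 17.5 and 7.69 CPM), were also apart, as were *Tpx2* and *Anln*. Not every mitotic gene followed. *Cdk1*, the central mitotic kinase, overlapped, at 70.6, 57.9 and 106.2 against 49.4, 48.3 and 169.7 CPM, and so did *Smc4* of the condensin complex, at 235.7, 387.1 and 455.8 against 248.7, 363.1 and 356.6 CPM. With each SS library left out in turn, between 12 and 18 of the 35 members (34.3% to 51.4%) were without overlap and higher and 0 lower. Of all genes 9.96% to 11% were higher. The median of the list ran from 0.76, without MAC-1 low replicate 2, to 1.26.

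Promoters of 3 of these genes are shown because mitotic genes stood higher together and because CCAAT boxes and the cell cycle homology region (CHR) are motifs known from promoters of mitotic genes. The windows are the 250 bases before the start site in the RefSeq table of GRCm38.p6, written 5′ to 3′ in the direction of the gene. Capitals mark CCAAT or its reverse complement ATTGG, and TTTGAA or its reverse complement TTCAAA, the core of the CHR.
Top2a, chr11:99024190-99024439, minus strand: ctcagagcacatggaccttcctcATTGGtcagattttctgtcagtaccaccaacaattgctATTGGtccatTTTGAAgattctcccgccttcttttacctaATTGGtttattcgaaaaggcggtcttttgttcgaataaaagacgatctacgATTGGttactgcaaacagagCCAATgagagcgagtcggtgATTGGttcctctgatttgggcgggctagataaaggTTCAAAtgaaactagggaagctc
Ccnb2, chr9:70421555-70421804, minus strand: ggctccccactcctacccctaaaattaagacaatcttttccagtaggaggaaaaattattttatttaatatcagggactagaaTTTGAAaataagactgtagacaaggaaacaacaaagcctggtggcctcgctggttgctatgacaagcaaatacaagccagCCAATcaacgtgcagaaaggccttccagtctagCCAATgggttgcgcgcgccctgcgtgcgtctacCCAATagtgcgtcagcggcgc
Mki67, chr7:135716380-135716629, minus strand: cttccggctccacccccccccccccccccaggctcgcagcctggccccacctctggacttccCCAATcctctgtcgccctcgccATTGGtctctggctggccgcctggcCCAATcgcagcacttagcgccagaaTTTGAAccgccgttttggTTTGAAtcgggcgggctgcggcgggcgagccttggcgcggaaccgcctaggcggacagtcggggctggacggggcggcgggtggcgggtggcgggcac
The first window holds 6 CCAAT and 2 CHR matches, the second 3 and 1, and the third 3 and 2. Promoters were found for 28 of the 35 genes, in 31 windows. CCAAT or ATTGG occurred in 26 of these (83.9%) against 33.8% of all 32851 windows, and TTTGAA or TTCAAA in 14 (45.2%) against 16%. These are matches of letters and not evidence of binding.

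Other genes of the division machinery were less uniform. In the list of SKA and NDC80 kinetochore complexes, 5 of 13 tested genes (38.5%) were without overlap and higher and 1 lower, with a median log2 fold change of 0.17. This median had no stable sign, since it was −0.04 without MAC-1- replicate 3 and 0.62 without MAC-1- replicate 1. Besides *Ska1* the higher ones were *Ska3* (34.5, 20.9 and 14.1 against 1.17, 3.04 and 6.77 CPM), *Nuf2*, *Spc24* (87.3, 148.7 and 93.7 against 66.5, 49.7 and 62.6 CPM) and *Zwint*, while *Dsn1* of the MIS12 complex was lower, at 0.678, 0.0559 and 17.3 against 20.8, 19.3 and 34.6 CPM. *Ska2* overlapped. Of 36 genes of DNA replication and S phase, 3 (8.33%) were without overlap and higher and 0 lower, with a median of 0.43. They were *Tk1*, thymidine kinase (70, 89.2 and 76.7 against 41.9, 34.7 and 24.4 CPM), *Uhrf1*, which maintains DNA methylation behind the fork (33.6, 60.5 and 50.3 against 25.2, 19.5 and 24.4 CPM), and *Rrm1*, a subunit of ribonucleotide reductase. The helicase genes *Mcm2* to *Mcm7* and the clamp gene *Pcna* (672.8, 531.8 and 393.4 against 437, 493.2 and 358.7 CPM) overlapped.

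Among 18 tested CDK inhibitors and genes of G1 entry, 2 (11.1%, against 5.95% of all genes) were without overlap and higher and 0 lower. The list as a whole did not lean to a side, with 9 positive and 9 negative log2 fold changes and a median of 0.003. The 2 genes were the inhibitor *Cdkn2d* (112.9, 83 and 122.1 against 33.5, 56.8 and 61.5 CPM) and the pocket protein gene *Rbl1* (69.6, 145.8 and 70.7 against 32.6, 49.2 and 61.3 CPM). *Cdk6*, whose product drives HSCs out of quiescence, overlapped at 170.5, 282.4 and 152.8 against 103, 134.7 and 162.4 CPM, as did *Cdkn1c*, an inhibitor linked to HSC quiescence, at 1.77, 19.7 and 37.9 against 14.1, 23.2 and 0 CPM, and *Myc*, at 116, 90.9 and 110.1 against 100.3, 106.6 and 102.4 CPM. Of 67 clustered histone genes 52 were tested, and 8 (15.4%) were without overlap and higher and 3 lower, with a median of 0.77. Their levels were low, with *Hist1h4h* at 15.4, 18.4 and 15.4 against 6.16, 3.67 and 11.3 CPM as the highest of the 8, and *Hist1h2bc* went the other way. Transcripts of most clustered histone genes lack a poly(A) tail, which SMART-Seq primes on.

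Immediate-early genes, which cells switch on within minutes of a stimulus or stress, stood lower in MAC-1 low HSCs as a group. Of 23 tested genes 7 (30.4%) were without overlap and lower and 0 higher, 17 had a negative and 6 a positive log2 fold change, and the median was −0.56. The summed level was 2841.4, 2380.1 and 2536.1 CPM in MAC-1 low and 3727.3, 3755.2 and 4217.2 CPM in MAC-1- HSCs. *Fos*, a subunit of AP-1, lay at 836.8, 761.3 and 686.9 CPM against 1223.8, 954.2 and 1520.2 CPM (log2 fold change −0.69, SE 0.16, adjusted p = 0.324). *Dusp1*, a phosphatase that switches MAP kinases off, lay at 581, 437.8 and 539.7 against 618.2, 796 and 881.5 CPM. *Egr1*, a transcription factor that has been tied to HSC quiescence, lay at 164.8, 105.2 and 198.4 against 262.8, 349.9 and 282.7 CPM. No MAC-1 low library reached a MAC-1- library in these 3 genes.

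The Krüppel-like factor genes *Klf2* (57.2, 64.2 and 46.9 against 91.9, 112.2 and 74.9 CPM), *Klf4* (105.2, 17 and 51.9 against 153.5, 119.3 and 178.6 CPM) and *Klf6* (123.3, 205.6 and 163.2 against 311.3, 349.2 and 270.2 CPM) were apart as well. So was the orphan nuclear receptor gene *Nr4a2*, at 7.88, 4.98 and 0.206 against 38.1, 34 and 31.9 CPM (log2 fold change −2.99, SE 1.01, adjusted p = 0.495). *Jun*, the partner of FOS, overlapped at 107.2, 99.6 and 151.2 against 182.1, 111.2 and 187.3 CPM, and *Junb*, *Jund*, *Ier2* and *Nr4a1* had log2 fold changes between −0.19 and 0.06. In DESeq2, 4 members passed the adjusted threshold, all lower, and in limma-voom 0 did. With each SS library left out in turn, 8 to 10 members (34.8% to 43.5%) were without overlap and lower, against 8.41% to 10.2% of all genes. The median ran from −0.69 to −0.45.

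Promoters of *Fos* and *Dusp1* are shown for a motif known from immediate-early genes, the core of the cyclic AMP response element (CRE). Capitals mark TGACGT or its reverse complement ACGTCA, in the same kind of window.
Fos, chr12:85473640-85473889, plus strand: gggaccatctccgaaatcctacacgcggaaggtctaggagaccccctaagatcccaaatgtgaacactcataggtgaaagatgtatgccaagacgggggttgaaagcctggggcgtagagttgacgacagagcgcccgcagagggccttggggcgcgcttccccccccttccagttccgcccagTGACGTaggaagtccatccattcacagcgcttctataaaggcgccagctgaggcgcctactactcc
Dusp1, chr17:26508473-26508722, minus strand: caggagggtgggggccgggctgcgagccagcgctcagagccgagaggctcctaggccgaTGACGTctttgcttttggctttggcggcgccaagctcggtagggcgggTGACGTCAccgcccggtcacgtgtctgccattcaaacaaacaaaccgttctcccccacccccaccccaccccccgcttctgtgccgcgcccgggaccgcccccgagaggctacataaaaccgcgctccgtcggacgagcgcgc
The first window holds 1 match and the second 3, of which a pair overlap in a full palindrome. The motif occurred in 9 of 27 windows (33.3%) found for 21 of the 24 immediate-early genes, in 1 of 31 windows of G2 and mitosis genes (3.23%) and in 6.47% of all windows.

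**Figure D4:**
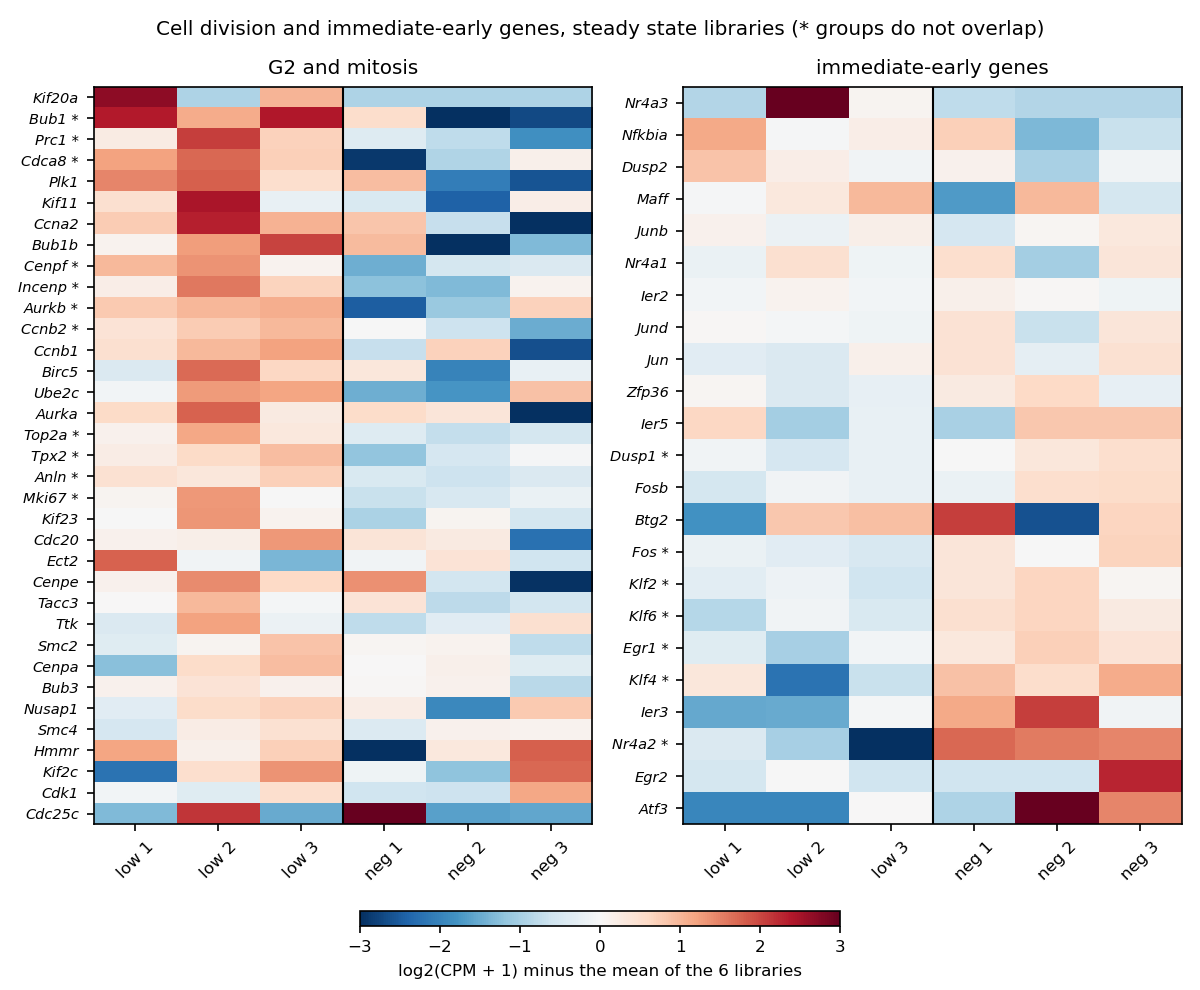
Heat map of log2(CPM + 1) minus the mean of the 6 SS libraries, for 35 genes of G2 and mitosis (left) and 23 immediate-early genes (right), each ordered by log2 fold change, with MAC-1 low libraries left of the line and MAC-1 negative libraries right of it. Asterisks mark the 11 mitotic genes and the 7 immediate-early genes whose groups do not overlap; red is above and blue below the mean.

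Mitochondrial transcripts took a smaller share of MAC-1 low libraries. Genes of the mitochondrial genome held 6.11%, 3.96% and 6.24% of the counts in MAC-1 low and 6.72%, 6.7% and 7.08% in MAC-1- libraries. Of 12 tested protein genes of this genome, 4 were without overlap and lower and 0 higher, with a median log2 fold change of −0.45. *mt-Cytb*, cytochrome b, lay at 21407, 10804.1 and 16147.3 CPM against 24337.8, 22515.7 and 26108.8 CPM, and *mt-Nd5* of complex I at 2277, 1585 and 1907.2 against 2741, 2792.8 and 2849.8 CPM. *mt-Co1* overlapped. Without MAC-1 low replicate 2, which had the lowest share, the median was −0.27, and without MAC-1 low replicate 1 it was −0.74. With an offset for GC content and length it was −0.19, no lower than the median of all genes in that fit (−0.20). Nuclear genes of oxidative phosphorylation differed less. Of 45 tested, 6 (13.3%) were without overlap and lower and 2 higher, with a median of −0.15, and among the lower ones were the complex I genes *Ndufv2* (689.9, 562.3 and 867.8 against 1338.1, 1278.4 and 987.6 CPM) and *Ndufa1* (620.3, 574.1 and 704.3 against 916.2, 839.6 and 837.4 CPM). The part of the mitochondrial share in the other differences was not tested beyond a fit with this share as a covariate, in which 3 genes were called and the median of G2 and mitosis genes was 0.90 and that of immediate-early genes −0.69.

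In the HSC signature named by the study, a few genes lay lower in MAC-1 low HSCs at steady state and none lay higher without overlap. The study drew this list and, *Ikzf2* aside, both lists of lineage genes that follow from this series, so their directions are not independent evidence. Of 12 signature genes 0 were without overlap and higher and 3 (25%, against 5.38% of all genes) lower, 8 had a negative log2 fold change, and the median was −0.09. With single SS libraries left out, 25% to 33.3% were lower, against 8.41% to 10.2% of all genes, and 0 higher. The median then ran from −0.27, without MAC-1 low replicate 2, to −0.05. The summed levels overlapped, at 2596.5, 2302.6 and 2253.1 against 2305.1, 2343.1 and 2612 CPM. *Mecom*, a transcription factor needed for HSC maintenance, was lower at 102.2, 136.6 and 122.6 against 161.6, 174 and 180.4 CPM, as were *Glipr1l1* and *Uba7*. *Procr*, the gene of EPCR, overlapped at 30.4, 64.3 and 55.9 against 32.6, 52.5 and 159.2 CPM, and so did *Fgd5*, *Socs2* and *Mllt3*. Among 31 other HSC regulators 1 (3.23%) was without overlap and higher and 3 (9.68%) were lower, against 5.95% and 5.38% of all genes. The higher one was *Robo4* (36.6, 21.8 and 3.3 against 1.25, 1.31 and 1.08 CPM), a receptor involved in HSC retention in the niche. The lower ones were *Hoxa9* (104.2, 69.5 and 89.5 against 162.5, 162.2 and 153.1 CPM) and *Egr1* and *Nr4a2*, which were already counted among the immediate-early genes. In the list of 18 tested niche adhesion and homing genes 0 were higher and 2 lower, the tetraspanin gene *Cd9* (280.8, 279.3 and 244.6 against 566.3, 459.3 and 282.8 CPM) and *S1pr1*.

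Some lineage genes were thinly expressed, while others such as *Lyz2* and *Prtn3* were not. The list of lymphoid and myeloid priming genes of the study held 8 genes, those named in its text and *Ikzf2*. Of these 3 were without overlap and higher and 0 lower, with a median of 0.43 (0.23 to 0.59 with single SS libraries left out). Besides *Flt3* they were *Ikzf1*, the lymphoid factor IKAROS (127.7, 106.2 and 100 against 90.9, 66.1 and 78.9 CPM), and *Gfi1*, a repressor needed for granulocyte development (19.1, 42.1 and 11.5 against 0.0734, 9.12 and 0 CPM). *Spi1*, the gene of PU.1, overlapped at 43.5, 25.8 and 44.4 against 26, 45.1 and 26.7 CPM. Of the 8 genes 6 had a positive and 2 a negative log2 fold change. *Ets1* was one of the negative ones, at 0.939, 0.168 and 2.27 against 7.92, 0.367 and 43.3 CPM, with overlap. Of 20 other lymphoid priming genes only 9 were tested, and 2 were without overlap and higher, among them *Il12rb1*, a chain of the interleukin-12 receptor (1.1, 8.33 and 8.46 against 0, 0.839 and 0.308 CPM). Of the 9 genes 6 had a positive and 3 a negative log2 fold change. The summed level of the 20 genes overlapped, at 382.9, 229.3 and 329.9 against 246.2, 491.2 and 422.7 CPM. Of 14 tested myeloid priming genes 2 were higher and 1 lower. *Csf2rb2*, a receptor chain for interleukin-3, had a ratio of 347.9 (62.1 to 13777.2), *Prtn3* lay at 226.5, 198.9 and 192.6 against 127.6, 191.7 and 106.7 CPM, and *Lyz2* lay lower at 624.7, 634.6 and 692.7 against 759, 692.7 and 697.2 CPM, where the closest libraries of both groups differed by less than the digits printed.

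Most megakaryocyte genes had negative log2 fold changes, though few single genes separated the groups. Of the 8 megakaryocytic/erythroid genes of the study 1 was without overlap and higher, *Itga2b* (20.3, 25.9 and 21.9 against 6.67, 14.1 and 20.1 CPM), and 0 lower. The median was −0.50, and −0.02 with groups at 0 set to the floor. It ran from −1.25 without MAC-1 low replicate 1 to −0.02 without MAC-1- replicate 1. *Pf4*, platelet factor 4, overlapped at 543.7, 251 and 339.9 against 790.7, 510.7 and 964.4 CPM, and *Vwf*, von Willebrand factor, at 38.8, 26.6 and 22.1 against 21.2, 8.33 and 33 CPM. Of 16 tested other megakaryocyte and platelet genes 1 was higher and 2 were lower, with a median of −0.96, which ran from −1.88 without MAC-1 low replicate 1 to −0.62 without MAC-1 low replicate 2. Their summed level did separate the groups, at 802.3, 660.4 and 720.6 against 1114.1, 979.5 and 961.5 CPM.

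Lists of interferon response, antigen presentation and MYC target genes held 0 to 3 members without overlap in each direction. Among 35 interferon response genes 1 was without overlap and higher and 3 lower (median −0.04, −0.23 to −0.03 with single SS libraries left out), and among 17 tested genes of MHC and antigen presentation 0 and 2 (median 0.29, 0.04 to 0.43), with *H2-Aa* at 95.6, 52 and 111.2 against 248.4, 129.2 and 112.8 CPM. Of 34 MYC targets and ribosome biogenesis genes 1 was higher and 0 lower (median 0.01). Of 18 tested p53 targets 1 was without overlap and higher and 3 (16.7%, against 5.38% of all genes) were lower, and 13 had a negative log2 fold change. The median was −0.43. It was −1.23 without MAC-1 low replicate 3, −0.79 without MAC-1- replicate 1 and −0.30 without MAC-1- replicate 2. The summed level of the list was 363.3, 275.7 and 375.6 CPM in MAC-1 low and 426.4, 489.7 and 594.9 CPM in MAC-1- HSCs, without overlap, and the cyclin G1 gene *Ccng1* stood at 107, 48.7 and 74.4 against 156.5, 174.2 and 243.4 CPM.

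Markers of other cells were checked because mature cells with MAC-1 could enter the gate. Several defining markers of neutrophils were absent or nearly so, while others such as *Ngp* were read. *Ly6g* had 0 counts in all 6 libraries, and *Ltf*, *Lcn2*, *Mmp8*, *Mmp9* and *Cd177* were at 0.104 CPM or less. With *Chil3* these were 7 of the 14 markers, and they were too low to be tested. The summed level of the list was 177.4, 137.5 and 157.9 CPM in MAC-1 low and 110.9, 84.6 and 100.4 CPM in MAC-1- HSCs (exact permutation p = 0.1, the smallest possible; 0.35 after adjustment over 7 lists). The most abundant member, *S100a8*, overlapped at 73.6, 56.9 and 79.6 against 91.1, 41.5 and 80.5 CPM. The groups differed more in *S100a9*, at 44.3, 23.2 and 46.8 against 19.7, 28.2 and 9.95 CPM with overlap, and in *Ngp*. *Ngp*, a granule protein of neutrophils, had 771, 466 and 213 counts in MAC-1 low and 0 in all 3 MAC-1- libraries, at least 145.5-fold higher against the floor (adjusted p = 0.324). *Retnlg* had 1, 0 and 162 counts in MAC-1 low and 0, 0 and 1 counts in MAC-1- libraries. The gate excluded cells with Gr-1, and the part of such cells in the differences above was not tested.

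The endothelial and stromal list stood lower in MAC-1 low, at 51.7, 63.3 and 22.2 against 150.4, 115.1 and 159.9 CPM (exact permutation p = 0.1, 0.35 after adjustment). Nearly all of it was *Emcn*, endomucin, which HSCs also carry, at 44.2, 57 and 18.5 against 141.1, 114.9 and 158.7 CPM, while the defining endothelial gene *Cdh5* was at 0.205 CPM or less. The summed levels of monocyte/macrophage, NK and T cell, B cell, erythroblast and mast cell and basophil lists overlapped, with exact permutation p from 0.2 to 1. Most sums came from 1 gene read in both groups. In MAC-1 low replicate 1 these were *Lyz2* (624.7 of 688.5 CPM), *Nkg7* (210.2 of 228.6), *Cd79b* (155.7 of 172.5) and *Car2* (2239.5 of 2336.9). Such sums could hardly show a few stray cells. *Ighm* had 314, 0 and 376 counts in MAC-1 low and 0 in MAC-1- libraries. *C1qb* had 0, 0 and 490 against 0, 0 and 1, and *Mpeg1* had 234, 0 and 0 against 0, 0 and 3. *Cd3d* went the other way (0 against 12, 0 and 1). The part of such cells was not tested. *Alas2*, *Mcpt8* and *Cd14* had 0 counts in all 6 libraries.

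The difference between MAC-1 low and MAC-1- HSCs was then compared with the difference between the same gates 4 weeks after transplantation, as an interaction in the same model. Both differences share no sample. Of 13661 genes tested 8 (0.0586%) passed, with a 4 week difference above the SS difference in 7 and below it in 1. At an unadjusted p below 0.05 the 4 week difference was above the SS difference in 653 genes (4.78%) and below it in 539 (3.95%).

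*Fos* was lower in MAC-1 low HSCs at steady state and higher at 4 weeks, where it lay at 1489.4, 1518.2, 1506.5 and 1650.2 CPM in MAC-1 low and at 857.9, 1131 and 854.5 CPM in MAC-1- HSCs. The interaction was 1.40 on the log2 scale (SE 0.22, adjusted p = 0.0583), while neither the SS nor the 4 week difference passed on its own (adjusted p = 0.324 and 0.107). *Mgst1*, a microsomal glutathione transferase, was read at 116.6, 129.2 and 152 against 229.4, 149.6 and 133.6 CPM in SS HSCs, with overlap, and at 145.1, 362.6, 206 and 207.3 against 33.6, 37.6 and 44.2 CPM at 4 weeks (interaction 2.95, SE 0.43, adjusted p = 0.0583). *Ifitm1*, an interferon-induced membrane protein, was read at 4050.9, 3121.9 and 3922.5 against 4110.4, 5161.7 and 4664.7 CPM in SS HSCs and at 1652, 2004.8, 1564.8 and 1838.1 against 688.9, 982.9 and 706.7 CPM at 4 weeks (interaction 1.48, SE 0.24, adjusted p = 0.0583). The SS groups of *Ifitm1* were apart too, with MAC-1 low below, whereas at 4 weeks MAC-1 low lay above in *Mgst1* and *Ifitm1*, and the SS levels of *Ifitm1* were above all 4 week levels of both gates. In edgeR the 4 week difference alone had an adjusted p of 0.00399 for *Mgst1* and 0.0111 for *Ifitm1*. The SS difference had 0.807 and 0.573. *Ska1* was the gene in which the 4 week difference was below the SS difference (interaction −8.09, SE 1.40, adjusted p = 0.0920).

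Mitotic and immediate-early genes differed between the settings in opposite directions. For 35 genes of G2 and mitosis the median log2 fold change was 1.12 at steady state and −0.25 at 4 weeks, and the 4 week difference was below the SS difference at an unadjusted p below 0.05 in 7 (20%) and above in 0. For 36 genes of DNA replication and S phase the medians were 0.43 and −0.52, with 10 (27.8%) below and 0 above. For 23 immediate-early genes they were −0.56 and 0.27, with 8 (34.8%) above and 1 below, and for the 12 HSC signature genes −0.09 and 1.04, with 5 above and 0 below. *Hlf* was read at 503.9, 169, 309.1 and 460.9 CPM in MAC-1 low and at 57, 87.2 and 56.7 CPM in MAC-1- HSCs at 4 weeks, where the groups were apart, whereas the SS groups overlapped (interaction 2.32, adjusted p = 0.285). Of the 8 megakaryocytic/erythroid genes of the study 3 were below and 0 above, with medians of −0.50 and −1.97. The study picked both of its lists from this series by nearly the contrast shown here. Its signature genes, *Hlf* included, were those steady at SS and rising with MAC-1 at 4 weeks. Its megakaryocytic/erythroid genes were those high in 4 week MAC-1- HSCs. The medians and interactions of both lists therefore follow at least in part from that choice and are no separate evidence. For single members of the lists other than *Ska1*, *Fos*, *Mgst1* and *Ifitm1* the interaction did not pass the adjusted threshold.

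**Figure D5:**
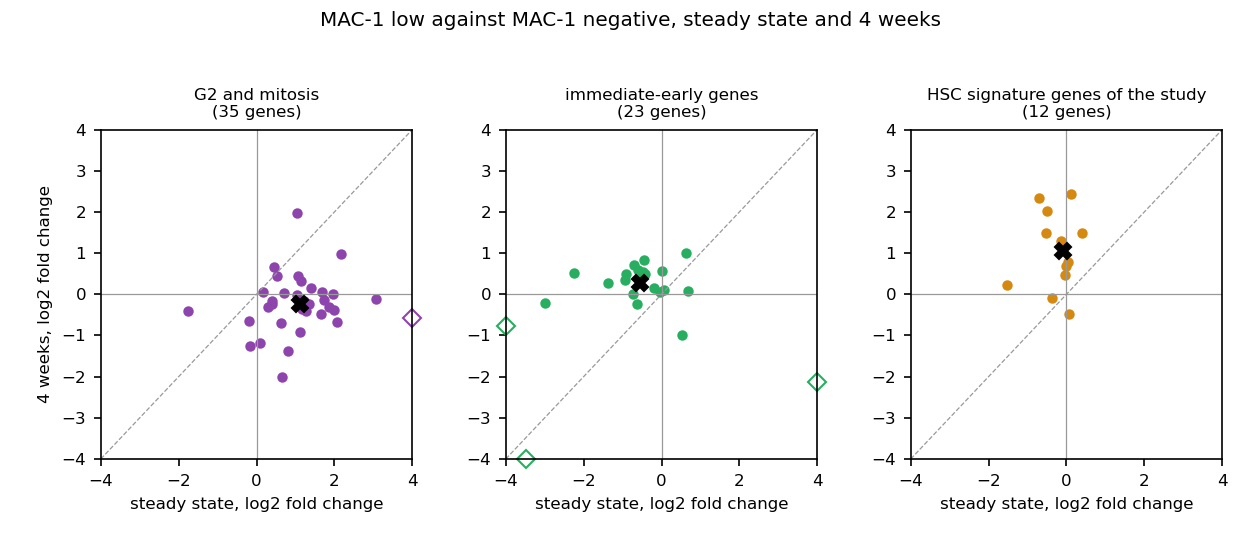
Log2 fold change of MAC-1 low against MAC-1 negative HSCs at steady state (x axis) and 4 weeks after transplantation (y axis), 1 point per gene, for 35 genes of G2 and mitosis, 23 immediate-early genes and 12 HSC signature genes of the study. Crosses are list medians, the dashed line marks equal differences, and open diamonds are genes beyond the axes. Mitotic genes lie mostly right of 0, immediate-early genes mostly left of 0 and above the dashed line, and HSC signature genes near 0 on the x axis and mostly above 0 on the y axis. The study chose the signature genes from this series for such a pattern.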

How the data were processed

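RNA was measured in 16 samples of sorted HSCs, and groups and replicate numbers were taken from the labels. Raw counts of reads per gene, not normalized, were deposited as 1 table. The authors amplified cDNA with SMART-Seq v4, built Nextera XT libraries, which carry no molecular identifiers, and used an nf-core pipeline for RNA-seq with STAR as aligner. The genome build, the annotation and the counting program were not given in the sources used here, whereas the submitters' processing notes name DESeq2. The table held 46078 genes, of which 0 had no name and 214 names stood on several lines, kept apart by identifier. Coordinates are those of GENCODE M21 (GRCm38), in which 98.2% of the identifiers were found, and promoters from a RefSeq table of GRCm38.p6.

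The test of single genes was edgeR 4.0.16 in R 4.3.3, robust quasi-likelihood with TMM factors and the default filter on low counts (13661 genes kept). A single model held the 16 samples with a mean per group, so that all groups share 1 estimate of the spread (biological coefficient of variation 1.13). All p-values of single genes come from this fit, with Benjamini-Hochberg adjustment over all genes tested, unless DESeq2 1.42.0 or limma 3.58.1 is named. Calls require an adjusted p below 0.1 together with a log2 fold change beyond 1 in either direction, while members of lists are called on the adjusted p alone. The tests were first tested on simulated counts with 200 changed genes. Exact permutation tests over the 6 SS samples were two-sided, on log2 CPM with a prior count of 2 or on summed CPM.

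Named are every called gene, the 12 genes per direction with the smallest p among those with at least 50 normalized counts, no overlap between the groups and a symbol that is no clone name, every gene called in the interaction up to 5 per direction, the MAC-1 subunits, members of lists of 12 or fewer genes and, of longer lists, those with the smallest p or the highest counts. Other list members were named after their values were seen. The comparison, the lists and the thresholds were chosen with earlier results of these data known. As alternatives served limma-voom with sample weights, DESeq2, its size factors in edgeR, no or a stricter filter, an offset for GC content and length, only the SS samples, the replicate number as a block, other thresholds and leaving out each sample of the groups compared. Added after the data had been seen were the mitochondrial share as a covariate, DESeq2 without a filter, lists with single samples left out and fits without each remaining 4 week sample. Some genes are not reported here.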

Additional observations from a re-analysis of the deposited data

Results flagged for a closer look

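In 8 genes the difference between MAC-1 low and MAC-1- HSCs at 4 weeks differed from that at steady state by the interaction test of edgeR, and each value is the 4 week minus the SS log2 fold change. *Mgst1* had 2.95, *RP23-329A21.3* 1.87, *Fos* 1.40 and *Ifitm1* 1.48 (adjusted p = 0.0583 for each), *Ska1* −8.09 and *Zfp36l2* 1.19 (adjusted p = 0.0920) and *Ccl4* 2.58 and *Cdk17* 1.94 (adjusted p = 0.0984). The clone gene *RP23-329A21.3* lay at 705.1, 533.7 and 547.4 against 842.6, 850.5 and 612.3 CPM at steady state, with overlap, and at 427.3, 483.5, 445.6 and 418.6 against 148.5, 200.5 and 120.3 CPM at 4 weeks. *Zfp36l2*, an mRNA-decay factor, lay at 619.9, 530.4 and 454.2 against 692.4, 759.2 and 760.5 CPM at steady state and at 553.3, 475.6, 512.6 and 580.2 against 283, 338.1 and 343.1 CPM at 4 weeks, so that the groups were apart in opposite directions. The chemokine gene *Ccl4* lay at 286.1, 108.1 and 171.9 against 277, 211.6 and 307 CPM at steady state and at 128.2, 157.6, 99.5 and 153.2 against 34.3, 32.1 and 28.6 CPM at 4 weeks. The kinase gene *Cdk17* lay at 243.7, 128.3 and 163.2 against 292.1, 302.2 and 214.2 CPM and at 360.8, 375.6, 305.5 and 321 against 117.9, 178.3 and 104.9 CPM. For *RP23-329A21.3*, *Zfp36l2*, *Ccl4* and *Cdk17* the adjusted p of edgeR was 0.00848, 0.0722, 0.0186 and 0.0493 for the 4 week difference alone. It was 0.611, 0.491, 0.712 and 0.521 for the SS difference alone. When each of 16 samples was left out, *Mgst1* kept its call in 11 fits, *RP23-329A21.3*, *Fos* and *Ifitm1* in 10, *Zfp36l2*, *Ccl4* and *Cdk17* in 4 and *Ska1* in 3, with the same sign in every fit. Groups of 3 were not tested for single samples that stand apart. In the 4 samples of 4 week MAC-1 low HSCs, none of these genes nor *Hlf* had a sample whose gap to the next, as a share of the range, passed the 95% critical value of Dixon's test.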

How the results depend on the processing

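The 2 genes called at steady state became 699 in DESeq2, 882 in DESeq2 without a filter, 0 in limma-voom, 1 with DESeq2 size factors, 14 without a filter, 1 with a stricter filter, 0 with only the 6 SS samples and 0 at an adjusted p below 0.05. With single samples left out there were 0 to 16 calls, with 0 without SS low 1, 4 week positive 2, 4 week negative 2 or any 4 week low sample (group and replicate number). Leaving out SS negative 1 and 2 gave 14 and 16, SS low 3 or SS negative 3 gave 6 and 4 week positive 1 gave 4. The 8 calls of the interaction became 576 in DESeq2, 727 in DESeq2 without a filter, 14 in limma-voom, 31 without a filter and 0 at an adjusted p below 0.05. With single samples left out they ran from 0 (SS low 2, SS low 3, 4 week low 4 or 4 week negative 1 left out) to 17 (SS negative 1). There was 1 call without 4 week low 1 or 4 week negative 3, 4 without 4 week positive 3, 5 without 4 week low 3 or 4 week negative 2, and 13 without SS negative 2 or 4 week positive 1. The causes were not tested.

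Same-numbered SS samples did not measurably deviate together (correlations 0.007, 0.003 and 0.01). With replicates as far apart as these, that cannot exclude a shared animal or sort, and the labels do not say whether the numbers pair samples. With the replicate number as a block there were 6 calls, 0 in the SS samples alone and 7 with the offset for GC content and length. That offset moved the median log2 fold change of all genes by −0.198, and with it the median of immediate-early genes was −0.96, of G2 and mitosis genes 0.80 and of mitochondrial genome genes −0.19. Over these alternatives the median of G2 and mitosis genes ran from 0.76 to 1.27 and that of immediate-early genes from −0.96 to −0.34, and in 18 fits each neither changed sign. Of 1006 values of named SS genes 898 stayed on their side of the threshold, 26 lost and 82 gained a call, and 0 changed direction. Of 184 values of interaction genes 76 lost the call. Of 432 list medians 37 moved by more than the spread between replicates, among them those of lymphoid priming genes (0.12 to 3.07). The SS comparison rests on 3 samples per group and a coefficient of variation of 1.13, and its power was not computed for small differences.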

Other observations

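Sex-linked genes were read as a check of the animals. The Y-linked gene *Ddx3y* was present in all 6 SS libraries, at 134.7, 110 and 64.8 CPM in MAC-1 low and 129, 46.1 and 141 CPM in MAC-1- HSCs, and *Xist* was at 0, 0 and 3.25 against 0, 0 and 0.154 CPM.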
